A study of Mus musculus with 12 samples.

Results

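Cytochrome P450 genes of families 1 to 4 were followed in scraped colon epithelial cells of C57BL/6 mice, 18 weeks old. The members were all symbols written as Cyp, a family number from 1 to 4, a subfamily letter and a gene number. The rule reads only the symbol, but it was set with earlier results of these data known. Of the 24391 symbols in the files, 75 qualified. Total RNA had been sequenced in 12 libraries. The 4 control libraries came from mice with no agent named in the labels. The 4 AOM/DSS libraries came from mice given AOM (azoxymethane, a colon carcinogen) and DSS (dextran sulfate sodium, which inflames the colon), and the other 4 from mice given both and curcumin, a polyphenol of turmeric. The last group is called curcumin below. Per the labels' protocol, the proximal colon and right-sided tumours had been cut away before the rest was scraped, so those tumours were not in the samples. They do not give doses, times of treatment or the number of mice behind a library, so the p-values measure the spread between these libraries, which may be technical.

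P450 enzymes are haem proteins of the endoplasmic reticulum that oxidise small molecules with electrons handed on by P450 reductase (Por). Families 1 to 3 are best known for the metabolism of drugs, food compounds and carcinogens, and family 4 for the oxidation of fatty acids and eicosanoids such as leukotriene B4. Many Cyp2c and Cyp2j enzymes also turn arachidonic acid into epoxides or hydroxy acids, and Ephx2, the soluble epoxide hydrolase, opens those epoxides. In the mouse most of these genes lie in runs of closely related copies. The intestinal epithelium is a known site of P450 expression outside the liver.

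The values are FPKM, reads scaled to gene length and library depth, so levels of different genes can be set side by side. Reads recovered from the FPKM steps totalled 5567988 to 15968416 per library. Epithelial marker genes summed to 6044 to 11221 FPKM per library. By gene GC content the libraries fell into 5 GC-rich ones (control 0, AOM/DSS 0 and 1, curcumin 0 and 1, numbered as in the labels) and 7 AT-rich ones, so only 1 control was GC-rich. Library AOM/DSS 3 stood apart. Albumin (Alb) was at 23.1 FPKM there against 0.193 to 0.998 in the other libraries, and sucrase-isomaltase (Sis), a small intestine enzyme, was at 7.51 against 0.0196 to 0.149. Its 6 distal colon Hox genes summed to 182 FPKM, against 324 to 501 elsewhere. Of the 60 members above 0 in any library, 17 were highest in AOM/DSS 3 and 15 in curcumin 0, while no other library held more than 6. Several of the 17 were near the floor, such as Cyp1a1 with 3 reads there and Cyp1b1 with 4. AOM/DSS 3 was among the deeper libraries (14004870 reads), and the share over all genes was not counted. Several results that rest on AOM/DSS 3 are given with and without it.

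Of the 75 members, 15 were at 0 in every library and 60 were above 0 in at least 1. A filter that asked for 1 FPKM in 4 or more libraries left 31 members for testing, and 29 more were above 0 but not tested, 22 of them never reaching 0.5 FPKM. Expression was concentrated in a few genes. Over all libraries Cyp2c55 held 19.2% of the summed FPKM of the members, Cyp2d34 16.5%, Cyp3a13 7.38%, Cyp2c68 6.93% and Cyp2d10 6.63%. Their group means overlap within SD in places, so the order of neighbours such as Cyp3a13, Cyp2c68 and Cyp2d10 is not set by these data. The Cyp2d genes together were at 570.7 ± 117.5 FPKM in control, 339.6 ± 78.1 in AOM/DSS and 666.2 ± 162.0 in curcumin (SD, n = 4 in each group here and below). The Cyp2c genes were at 316.6 ± 185.3, 384.2 ± 231.6 and 695.7 ± 134.3. Their AOM/DSS mean includes 619.3 FPKM in AOM/DSS 3, beside 66.8 to 453.4 in the other AOM/DSS libraries. The Cyp4f genes were at 205.0 ± 46.5, 187.2 ± 24.2 and 281.4 ± 77.5. All members summed to 1372.5 ± 337.4 FPKM in control, 1126.2 ± 296.3 in AOM/DSS and 1928.1 ± 278.4 in curcumin.

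**Figure D1:**
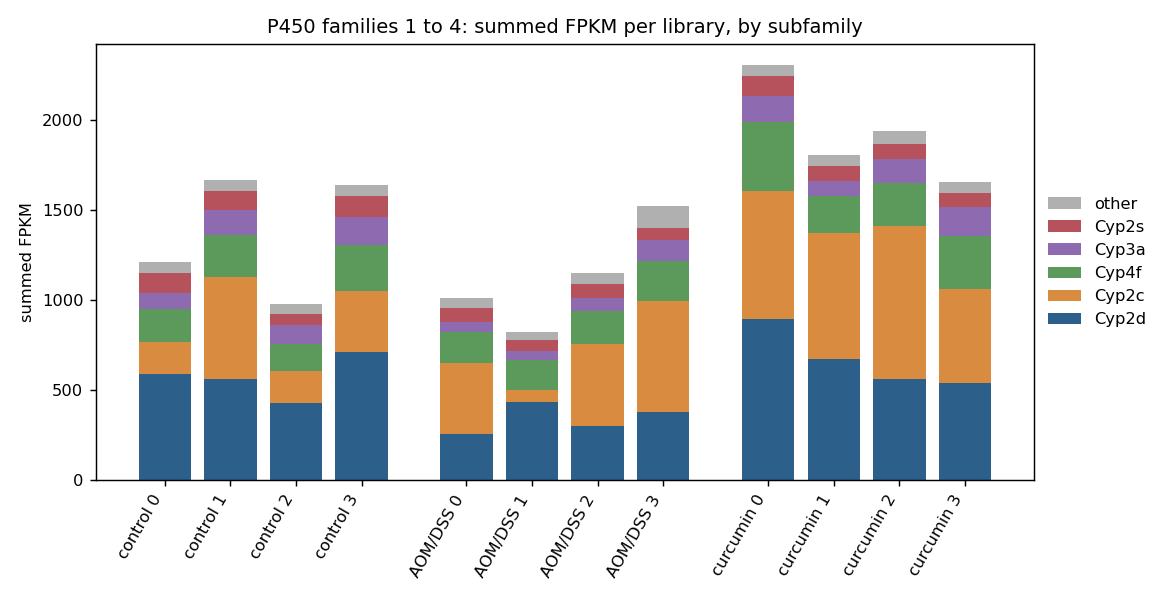
Summed FPKM of the members in each of the 12 libraries, stacked by subfamily, 1 bar per library. The Cyp2c segment is the one that varies most between libraries of a group, from 66.8 FPKM in AOM/DSS 1 to 619.3 in AOM/DSS 3, while the Cyp2d segment is smaller in every AOM/DSS library but one than in every control (430.2 in AOM/DSS 1 against 424.7 in control 2).

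**Figure D2:**
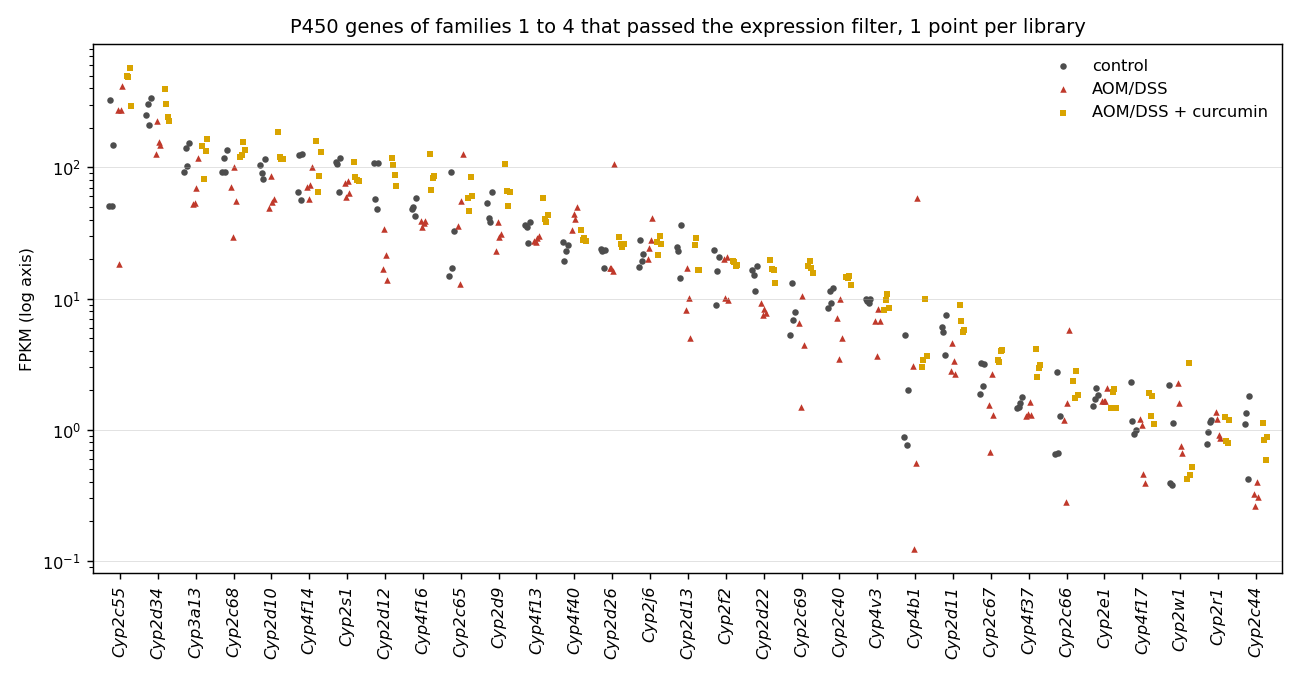
FPKM of the 31 tested members on a log axis, 1 point per library, in 3 marker shapes for control, AOM/DSS and curcumin. Cyp2d12 shows the AOM/DSS points (13.7 to 33.7 FPKM) clear of the other groups (48.5 to 118), and Cyp2d26 and Cyp4b1 show the single high point of AOM/DSS 3.

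AOM/DSS against control asks what carcinogen and colitis left changed in the epithelium. Cyp2d12 and Cyp2d22 fell and Cyp4f40 rose, and the other 28 tested members did not pass the threshold (limma on log2(FPKM + 1), adjusted p below 0.05 over all 12052 genes tested). The 3 calls among 31 members stand beside 1.27% of all tested genes called in this comparison, 0.456% higher and 0.813% lower. Of the 31 members, 22 had a mean difference below 0, against 47.2% of all genes, and the median difference was -0.39 against 0.02 over all genes. In 5 members all AOM/DSS libraries were below all controls, and in 1 they were above, beside 3.63% and 2.38% of all genes. At unadjusted p below 0.05 there were 16 members, beside 13.5% of all genes. Without AOM/DSS 3 only the call of Cyp2d12 was left, beside 79 of the 12052 genes (0.655%), and a fit of these groups alone also called 1 member, beside 54 genes.

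Curcumin against AOM/DSS asks what curcumin changed in mice that had both agents. Cyp2d12, Cyp2d10, Cyp2d22, Cyp2d9, Cyp4f16, Cyp4f37 and Cyp2c40 rose, and no member fell. These 7 calls stand beside 1.08% of all tested genes called, 0.73% higher and 0.348% lower. In 25 of the 31 members the mean difference was above 0, against 49.1% of all genes, and the median difference was 0.64 against -0.01. Some members are close copies that may share reads, so in the counts of all 3 comparisons they are not all separate cases. In 13 members all curcumin libraries were above all AOM/DSS libraries, beside 4.95% of all genes. The converse held in 0 members, beside 4.27%. This comparison and the one before use the same AOM/DSS libraries, so they are not independent of each other. At unadjusted p below 0.05 there were 19 members, beside 14.5% of all genes. Without AOM/DSS 3 there were 6 calls, beside 108 of the 12052 genes (0.896%): Cyp2c40 and Cyp2d9 lost theirs and Cyp2d26 gained one. With the GC class of the library as a covariate there were 12, beside 272 genes (2.26%).

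Curcumin against control called 0 of the 31 members, beside 0.141% of all tested genes, 0.0913% higher and 0.0498% lower. At unadjusted p below 0.05 there were 8 members, beside 12.2% of all genes. The limma voom fit on recovered reads also called 0 members, beside 22 genes (0.183%). The mean difference was above 0 in 25 members, against 52.5% of all genes, and below 0 in 6, against 47.5%, with a median of 0.29 against 0.01. In 8 members every curcumin library was above every control, beside 3.72% of all genes, and in 0 it was below, beside 4.55%. The smallest adjusted p belonged to Cyp4f16 (log2 difference 0.82, SE 0.16, adjusted p = 0.0795) and Cyp4f37 (0.68, SE 0.14, adjusted p = 0.0795). The controls serve both this comparison and AOM/DSS against control, and the curcumin libraries serve both curcumin comparisons.

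**Figure D3:**
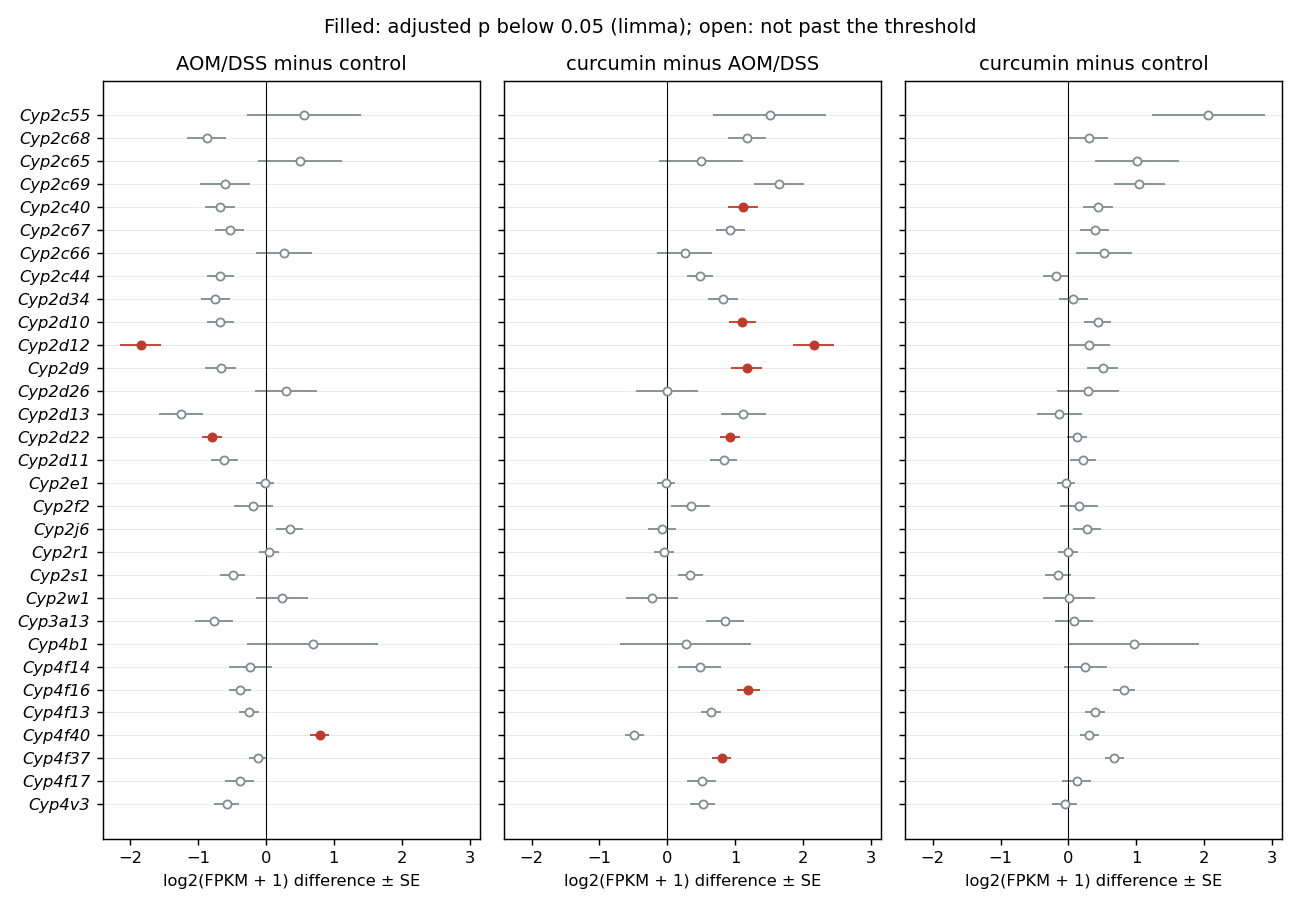
Difference in log2(FPKM + 1) for the 31 tested members in the 3 comparisons, with bars of 1 SE from limma and filled points where adjusted p was below 0.05. Filled points are 3 for AOM/DSS against control (Cyp2d12, Cyp2d22, Cyp4f40), 7 for curcumin against AOM/DSS and 0 for curcumin against control.

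The Cyp2d genes are the mouse counterparts of the human drug-oxidising enzyme CYP2D6. All 9 were above 0 and 8 were tested. Cyp2d12 was at 108, 57.7, 48.5 and 108 FPKM in control 0 to 3, at 16.7, 33.7, 21.6 and 13.7 in AOM/DSS 0 to 3, and at 118, 105, 87.6 and 71.7 in curcumin 0 to 3. Every AOM/DSS library was below every other library, and control and curcumin overlapped. The mean was 3.76 times as high in control as in AOM/DSS and 4.46 times as high in curcumin. Cyp2d12 fell by 1.85 on the log2 scale in AOM/DSS (SE 0.30, adjusted p = 0.0105) and was 2.16 higher in curcumin than in AOM/DSS (SE 0.30, adjusted p = 0.00536). Both calls held in each of the 12 fits that left out 1 library. Within GC classes the differences were -2.14 and 2.18 in the GC-rich libraries and -1.90 and 2.14 in the AT-rich ones. Because these are bulk samples, fewer cells that express a gene and less RNA per cell cannot be told apart.

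Cyp2d22 gave 16.4, 15.1, 11.4 and 17.7 FPKM in control, 9.19, 7.44, 8.40 and 7.83 in AOM/DSS and 19.7, 16.7, 16.5 and 13.2 in curcumin. Here too the AOM/DSS libraries did not overlap the others. It fell by 0.80 in AOM/DSS (SE 0.15, adjusted p = 0.0223) and rose by 0.92 with curcumin over AOM/DSS (SE 0.15, adjusted p = 0.0123). The fall lost its call without control 0 (adjusted p = 0.0651), control 1 (0.0505), control 3 (0.0927) or AOM/DSS 3 (0.0674), with differences of -0.72 to -0.79, while the rise held in all 12 such fits. The adjusted p of the fall ran from 0.00919 to 0.466 over all alternatives, the highest in the GC-rich libraries alone.

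Cyp2d10 was at 104, 90.1, 81.2 and 116 FPKM in control, 49.2, 85.6, 54.6 and 57.8 in AOM/DSS and 186, 119, 115 and 115 in curcumin. Curcumin libraries were all above AOM/DSS libraries, and AOM/DSS 1 lay within the control range. The rise with curcumin over AOM/DSS was 1.10 (SE 0.20, adjusted p = 0.0184). Without AOM/DSS 0 it was 1.01 and without curcumin 1 it was 1.15, both no longer past the threshold (adjusted p = 0.0509 and 0.05001, with a range of 0.00999 to 0.300 over all alternatives). Cyp2d9 was at 38.4 to 64.5 FPKM in control, 23.1 to 38.5 in AOM/DSS and 50.5 to 106 in curcumin, and rose by 1.17 with curcumin over AOM/DSS (SE 0.23, adjusted p = 0.0284). That call was lost without any 1 of AOM/DSS 0, 2 or 3 or curcumin 0, 1 or 3, with differences of 0.97 to 1.20 in those fits. Against control, AOM/DSS differences of Cyp2d10 and Cyp2d9 were -0.67 each and did not pass (adjusted p = 0.137 and 0.206).

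Cyp2d34, the most abundant of the Cyp2d genes, did not pass in any comparison. It was at 252, 301, 209 and 337 FPKM in control, 127, 226, 156 and 149 in AOM/DSS and 397, 302, 243 and 225 in curcumin. AOM/DSS 1 overlapped both other groups, and the differences were -0.75 (SE 0.22, adjusted p = 0.134) and 0.82 (SE 0.22, adjusted p = 0.103). Cyp2d13 differed by -1.25 and 1.12 and Cyp2d11 by -0.61 and 0.83, with no call. Cyp2d26 differed from the rest through 1 library. It was at 17.0 to 23.9 FPKM in control and 24.9 to 29.5 in curcumin, and at 17.0, 17.0, 16.2 and 106 in AOM/DSS. AOM/DSS minus control was 0.30 (adjusted p = 0.821) with AOM/DSS 3 and -0.35 (adjusted p = 0.326) without it. Curcumin minus AOM/DSS was -0.01 (adjusted p = 0.994) with AOM/DSS 3 and 0.64 (adjusted p = 0.0471) without it. Over the 7 tested Cyp2d genes other than Cyp2d26, AOM/DSS minus control ran from -1.85 to -0.61 and curcumin minus AOM/DSS from 0.82 to 2.16.

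These genes resemble each other in sequence, which the counting may not resolve. Of the 50-base stretches of the longest coding transcript, 40.5% in Cyp2d10, 37.2% in Cyp2d11, 29.0% in Cyp2d9 and 17.9% in Cyp2d12 also occur in another gene's transcripts, and 6.1% in Cyp2d22. The values of Cyp2d9, Cyp2d10 and Cyp2d11 are therefore uncertain, those of Cyp2d22 less so. The 3 also resemble each other in their promoters. These are shown because the 3 genes differed in the same direction between groups, as did the other tested Cyp2d genes except Cyp2d26. For Cyp2d12, Cyp2d13, Cyp2d22 and Cyp2d34 no promoter was matched, so Cyp2d12 and Cyp2d22, called in both comparisons, are not covered. The 250 bases before the start sites of Cyp2d9 and Cyp2d10 are identical at 82.3% of bases, those of Cyp2d9 and Cyp2d11 at 82.3% and those of Cyp2d10 and Cyp2d11 at 75.8%, while identity with Cyp2d26 is 50.2% to 51.1%. The 70 bases before each start site (RefSeq, GRCm38.p6) are given with the run CAAAGGGCA in capitals. It lies 50, 53 and 65 bases before the start sites of Cyp2d9, Cyp2d10 and Cyp2d11, and the lower-case letters tttataagg in all 4 resemble a TATA box.
Cyp2d9, chr15:82452307-82452376, plus strand: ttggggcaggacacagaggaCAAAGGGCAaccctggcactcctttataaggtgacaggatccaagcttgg
Cyp2d10, chr15:82407195-82407264, minus strand: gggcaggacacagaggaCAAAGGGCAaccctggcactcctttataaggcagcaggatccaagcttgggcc
Cyp2d11, chr15:82394023-82394092, minus strand: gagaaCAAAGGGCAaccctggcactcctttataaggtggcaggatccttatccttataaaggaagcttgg
Cyp2d26, chr15:82794246-82794315, minus strand: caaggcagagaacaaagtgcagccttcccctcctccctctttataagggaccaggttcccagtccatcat
The letters CAAAGGGCA were picked after these sequences were read. Cyp2d26 holds the similar letters caaagtgca. Without AOM/DSS 3 its differences, -0.35 and 0.64, had the same directions as those of the 3 genes. A link of the letters to the differences was not tested. On either strand they occur in 0.399% of all 32851 promoter windows of this length in the table and in 4 of the 69 windows of members. RefSeq promoters were matched for 62 of the 75 members.

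The Cyp2d genes lie in 1 run on chromosome 15, in the order given by RefSeq for GRCm38.p6. Other tested genes within or beside that run, 8 in number, were set beside them. Their median difference was -0.07 for AOM/DSS minus control and 0.21 for curcumin minus AOM/DSS, with 0 of 8 called in either, while the 8 tested Cyp2d genes had medians of -0.71 and 1.01. The farthest from 0 among the neighbours were Mir7684 (-0.57), listed inside the run, and the pseudogene Cyp2d37-ps (0.80), named here after their values were seen. For the Cyp2c run on chromosome 19 the 7 tested members had medians of -0.54 and 1.12 and the 6 neighbours 0.07 and -0.13. For the Cyp4f run on chromosome 17 the 6 tested members had medians of -0.24 and 0.58 and the 9 neighbours -0.17 and 0.04. No neighbour of these runs was called.

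**Figure D4:**
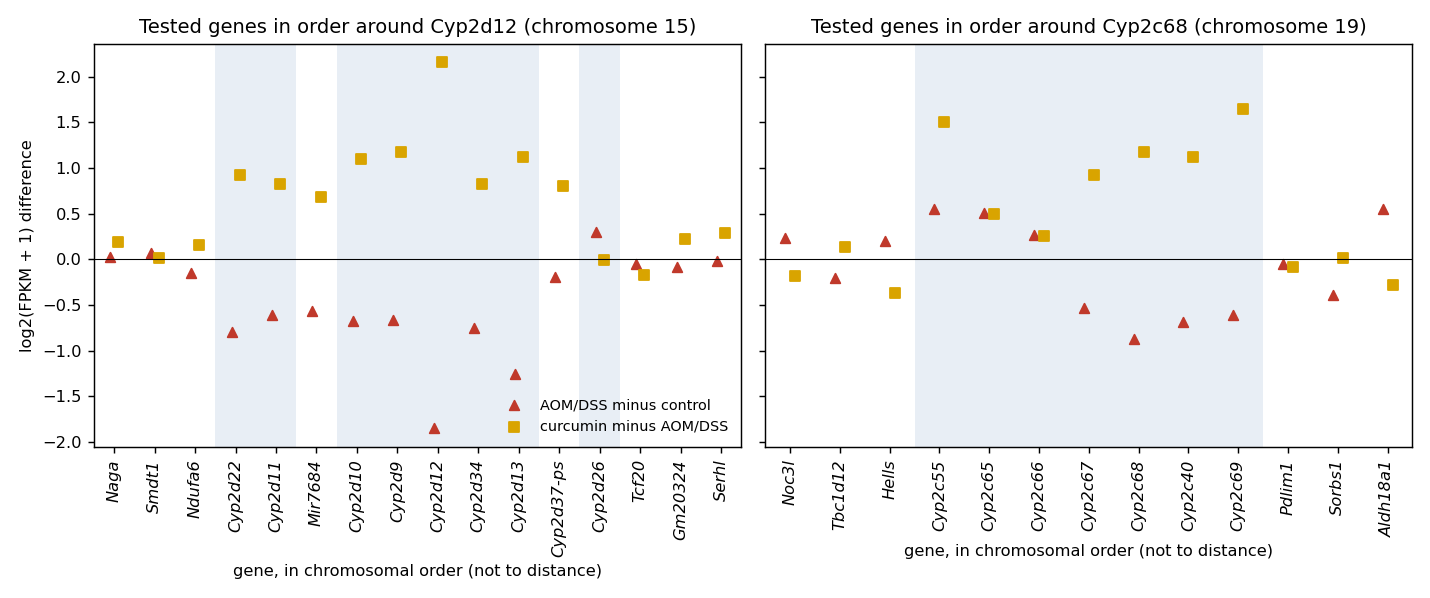
Differences in log2(FPKM + 1) of tested genes in chromosomal order around the Cyp2d and Cyp2c runs, members and neighbouring genes marked separately. They are shown for AOM/DSS minus control and curcumin minus AOM/DSS. Around Cyp2d the neighbours have medians of -0.07 and 0.21, with Mir7684 at -0.57 and 0.68 and Cyp2d37-ps at -0.19 and 0.80. Members of the Cyp2d run lie below 0 in the one comparison and above 0 in the other, except Cyp2d26.

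Cyp2c55, a fatty acid hydroxylase known from mouse colon, was the most abundant member. It was at 51.0, 328, 50.9 and 148 FPKM in control, 274, 18.5, 273 and 420.1 in AOM/DSS and 495, 488, 571 and 291 in curcumin. The groups overlapped in all comparisons, and the largest difference, curcumin minus control, was 2.07 (SE 0.84, adjusted p = 0.351). AOM/DSS minus control was 0.56 (adjusted p = 0.815) with AOM/DSS 3 and 0.08 (adjusted p = 0.973) without it. Curcumin minus AOM/DSS was 1.51 (SE 0.84, adjusted p = 0.442), and by GC class it was 2.75 in the GC-rich libraries and 0.27 in the AT-rich ones. The small intestine enterocyte markers summed to 84.3 FPKM in control 0, 110.1 in AOM/DSS 1 and 160.5 in control 2, and to 200 to 584 in the other libraries. Most of each sum was 1 gene, the fatty acid binding protein Fabp2, at 62.0, 90.6 and 136 FPKM in those 3 libraries. Alpi of the same list was also lowest in the 3, at 2.09 to 2.76 FPKM against 5.08 to 12.5. Sis was not, since its 0.149 FPKM in control 0 was above every library but AOM/DSS 3. The 3 libraries with the lowest sums also had the lowest Cyp2c55. Whether the site that was scraped has a part in this was not tested. Cyp2c65 and Cyp2c66 varied in the same libraries, Cyp2c65 from 12.9 FPKM in AOM/DSS 1 to 127 in AOM/DSS 3, and did not pass in any comparison. Curcumin minus AOM/DSS was 0.50 for Cyp2c65 (SE 0.62), and 1.02 without AOM/DSS 3 (adjusted p = 0.503, range 0.385 to 0.977 over all alternatives). For the same gene AOM/DSS minus control was 0.51 (adjusted p = 0.771), and -0.01 without AOM/DSS 3 (adjusted p = 0.996). For Cyp2c66 that difference was 0.27 (adjusted p = 0.822), and -0.19 without AOM/DSS 3 (adjusted p = 0.843).

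Cyp2c40, Cyp2c67, Cyp2c68 and Cyp2c69 form a group of close copies, of which Cyp2c40 is known to hydroxylate arachidonic acid. Cyp2c40 was at 8.42, 11.5, 9.28 and 11.9 FPKM in control, 7.07, 3.46, 9.87 and 5.02 in AOM/DSS and 14.6, 14.4, 14.9 and 12.8 in curcumin. Every curcumin library was above every other library, and AOM/DSS overlapped control. It rose by 1.12 with curcumin over AOM/DSS (SE 0.22, adjusted p = 0.0304). The call was lost without AOM/DSS 3 or without any of the 4 curcumin libraries, at differences of 1.05 to 1.17 (adjusted p = 0.0604 to 0.0943, and 0.00721 to 0.406 over all alternatives). The other copies did not pass. Curcumin minus AOM/DSS was 1.65 for Cyp2c69 (SE 0.37, adjusted p = 0.0552), 1.18 for Cyp2c68 (SE 0.28, adjusted p = 0.0694) and 0.93 for Cyp2c67 (SE 0.21, adjusted p = 0.0598), and in all 3 the curcumin libraries lay above the AOM/DSS libraries. Cyp2c68 is the abundant copy, at 92.2 to 135 FPKM in control, 29.2 to 101 in AOM/DSS and 120 to 155 in curcumin. Of the 50-base stretches of Cyp2c40, 72.1% also occur in other transcripts, and the shares are 54.8% in Cyp2c69, 52.8% in Cyp2c67 and 43.3% in Cyp2c68, so reads may be split among the 4 and their single values are uncertain. Cyp2c55 shares 1.1%.

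The promoters of the 4 copies and of Cyp2c65 hold the letters CAAAGTCCA, a form of the element known for the nuclear receptor HNF4. They are shown with those letters in capitals because the copies differed in the same direction (RefSeq, GRCm38.p6).
Cyp2c40, chr19:39812833-39812877, minus strand: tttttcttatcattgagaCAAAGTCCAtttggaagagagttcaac
Cyp2c69, chr19:39886818-39886862, minus strand: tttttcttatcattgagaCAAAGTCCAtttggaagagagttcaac
Cyp2c68, chr19:39741152-39741196, minus strand: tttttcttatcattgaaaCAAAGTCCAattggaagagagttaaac
Cyp2c67, chr19:39649141-39649185, minus strand: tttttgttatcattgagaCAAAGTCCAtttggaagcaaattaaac
Cyp2c65, chr19:39060872-39060916, plus strand: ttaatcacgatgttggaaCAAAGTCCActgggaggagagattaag
The first capital lies 45 bases before the start site in Cyp2c40, 75 in Cyp2c69, 77 in Cyp2c68, 125 in Cyp2c67 and 116 in Cyp2c65. On either strand the letters occur in 0.384% of all promoter windows, in 8 of 69 windows of members and in 5 of 29 windows of tested members, those 5 being the genes shown. The match is a description of the letters, and the 4 copies share most of this stretch, so they do not count as separate cases. Over the whole 250 upstream bases Cyp2c68 and Cyp2c69 are identical at 91.3% and Cyp2c40 and Cyp2c69 at 77.5%. For Cyp2c67 the share was 47.9% with Cyp2c40 and 63.1% with Cyp2c68, and between Cyp2c40 and Cyp2c65 it was 48.4%. The windows are counted from start sites that lie 45 to 125 bases after the first capital in the 4 copies. They are therefore shifted against each other, and a low share does not show that the copies differ in sequence. Hnf4a, an HNF4 gene, was at 281 ± 44.9 FPKM in control, 255 ± 14.3 in AOM/DSS and 250.1 ± 20.9 in curcumin and passed in no comparison. Hnf4g, the other HNF4 gene, was at 14.6 ± 2.04, 11.9 ± 2.52 and 8.29 ± 2.51 FPKM. Its curcumin libraries (5.62 to 10.97) were all below the controls (11.8 to 16.5), but the difference of -0.78 did not pass (SE 0.20, adjusted p = 0.139). Among the other letters searched, TATAAA occurs in 12.4% of all windows and in 24 of 69 of members, AGGTCA in 14.02% and 17 of 69, and GCGTG, the core of the Ah receptor element, in 28.2% and 13 of 69. TTATGTAA and TTACGTAA occur in 0.819% and 0.113% of all windows and in 0 of members.

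Cyp2c44 is an arachidonic acid epoxygenase of low level here. It was at 1.11, 1.34, 0.424 and 1.79 FPKM in control and 0.325, 0.262, 0.397 and 0.305 in AOM/DSS, with no overlap, and at 0.593 to 1.12 in curcumin. The difference was -0.67 (SE 0.19, adjusted p = 0.125) and did not pass. Cyp2c70, the enzyme that makes muricholic acids in mouse liver, was not tested. It was at 0 in all 4 AOM/DSS libraries and at 0.115 to 0.283 FPKM in control and 0.0625 to 0.317 in curcumin, and a count of 0 allows up to 3 reads in a library.

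The Cyp4f enzymes oxidise the tail of fatty acids and of leukotriene B4. All 9 genes were above 0 and 6 were tested. Cyp4f16 was at 48.0, 50.2, 42.6 and 58.4 FPKM in control, 38.8, 35.4, 37.9 and 39.3 in AOM/DSS and 125, 67.0, 82.9 and 85.9 in curcumin. The 3 groups did not overlap. It rose by 1.20 with curcumin over AOM/DSS (SE 0.16, adjusted p = 0.00464), and AOM/DSS minus control was -0.38 (SE 0.16, adjusted p = 0.330). Cyp4f37, at a far lower level, was at 1.47, 1.49, 1.60 and 1.77 FPKM in control, 1.27, 1.31, 1.62 and 1.29 in AOM/DSS and 4.12, 2.52, 2.93 and 3.10 in curcumin. Curcumin libraries were above all others, and it rose by 0.80 over AOM/DSS (SE 0.14, adjusted p = 0.0149). Both rises held in all 12 fits that left out 1 library. The difference for Cyp4f16 was 1.29 in GC-rich and 1.11 in AT-rich libraries, and for Cyp4f37 0.89 and 0.71.

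Cyp4f16 and Cyp4f37 are related copies. Of the 50-base stretches of Cyp4f16, 26.5% occur in other transcripts, 24.8% in Cyp4f37. Of those of Cyp4f37, 21.7% occur in other transcripts, 20.9% in the far more abundant Cyp4f16. The value of the low gene, Cyp4f37, is therefore uncertain. Whether its rise is separate from that of Cyp4f16 was not tested. Their promoters share a run of 33 bases, in capitals, the longest found between them, at different distances from the start site (33 bases before it in Cyp4f16 and 100 in Cyp4f37, RefSeq, GRCm38.p6).
Cyp4f16, chr17:32536509-32536556, plus strand: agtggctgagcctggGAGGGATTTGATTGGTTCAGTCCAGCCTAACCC
Cyp4f37, chr17:32621219-32621266, plus strand: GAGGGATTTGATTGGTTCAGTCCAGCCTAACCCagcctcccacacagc
Over the whole 250 upstream bases they are identical at 56.5%, and Cyp4f16 and Cyp4f40 at 43.9%. The windows of Cyp4f16 and Cyp4f37 are shifted against each other around the shared run, which may lower their share.

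Cyp4f40 was the member that rose in AOM/DSS. It was at 27.0, 19.3, 23.0 and 25.4 FPKM in control, 33.1, 44.0, 40.2 and 50.2 in AOM/DSS and 33.2, 28.2, 28.9 and 27.3 in curcumin. All AOM/DSS libraries were above all controls, and curcumin 0 overlapped AOM/DSS 0. The rise over control was 0.79 (SE 0.14, adjusted p = 0.0169), and curcumin minus AOM/DSS was -0.49 (SE 0.14, adjusted p = 0.133). Without AOM/DSS 3 the rise was 0.70 and lost its call (adjusted p = 0.0534, range 0.0132 to 0.682 over all alternatives). By GC class it was 0.49 in GC-rich and 0.97 in AT-rich libraries. It shares 1.8% of its 50-base stretches with other transcripts. Cyp4f13 and Cyp4f14, a leukotriene B4 hydroxylase, were at 34.02 ± 5.21 and 93.1 ± 37.6 FPKM in control and did not pass. Curcumin minus AOM/DSS was 0.64 (SE 0.15, adjusted p = 0.0564) and 0.48 (SE 0.32, adjusted p = 0.531). Cyp4f18, known from neutrophils, was not tested, at 0.236 to 2.25 FPKM in AOM/DSS, 0.473 to 1.16 in control and 0.0354 to 0.753 in curcumin.

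Cyp3a13, the main Cyp3a gene in these libraries, was at 91.4, 140.1, 103 and 154 FPKM in control, 52.9, 53.0, 70.2 and 119 in AOM/DSS and 145, 81.9, 134 and 163 in curcumin. The groups overlapped, through AOM/DSS 3 and curcumin 1, and the differences of -0.77 (SE 0.28, adjusted p = 0.236) and 0.86 (SE 0.28, adjusted p = 0.176) did not pass. Without AOM/DSS 3 the differences were -1.02 (adjusted p = 0.0948) and 1.11 (adjusted p = 0.0623), and neither was past the threshold. Cyp2s1, an epithelial P450, was at 99.97 ± 23.7, 69.5 ± 9.46 and 88.4 ± 14.7 FPKM with no call. Cyp4v3, a fatty acid hydroxylase, was at 9.33 to 9.91 FPKM in control and 3.62 to 8.39 in AOM/DSS, without overlap, but its difference of -0.58 did not pass (SE 0.18, adjusted p = 0.159). Cyp2e1, which is known to activate azoxymethane, was at 1.78 ± 0.235, 1.76 ± 0.215 and 1.73 ± 0.305 FPKM, with differences of -0.03 to -0.01 in the 3 comparisons (SE 0.13). The vitamin D 25-hydroxylase Cyp2r1 was at 1.02 ± 0.187, 1.09 ± 0.244 and 1.01 ± 0.236 FPKM.

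Cyp2w1, known from fetal colon and colon tumours, was at 0.379 to 2.19 FPKM in control, 0.664 to 2.29 in AOM/DSS and 0.424 to 3.25 in curcumin and did not pass. Cyp2j6, an intestinal epoxygenase, was at 21.6 ± 4.48, 28.4 ± 9.24 and 26.1 ± 3.56 FPKM, and Cyp2f2, known from lung, at 17.4 ± 6.37, 15.2 ± 6.05 and 18.5 ± 0.800. Neither passed. Cyp4b1 was at 0.883, 5.26, 0.767 and 2.02 FPKM in control, 3.05, 0.123, 0.559 and 58.7 in AOM/DSS and 3.03, 3.39, 9.94 and 3.67 in curcumin, so its AOM/DSS mean rests on AOM/DSS 3. AOM/DSS minus control was 0.69 (adjusted p = 0.798) with that library and -0.55 (adjusted p = 0.705) without it, with a range of 0.570 to 0.956 over all alternatives.

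Some P450 genes used as readouts of xenobiotic receptors, those given here, were low or at 0. Whether other, more abundant members respond to these receptors was not tested. Cyp1a1, the classical target of the Ah receptor, gave 5 reads over all 12 libraries, Cyp1b1 6 and Cyp1a2 0. Cyp3a11, a target of the receptor PXR, gave 14 reads, 7 of them in AOM/DSS 3. Of the PPAR alpha targets, Cyp4a10 gave 26 reads and Cyp4a14 0. Of these genes no change could be detected at this depth. Cyp2b10, the classical target of the receptor CAR, was at 0.983, 2.31, 0.764 and 1.41 FPKM in control, 0.0543, 0.245, 0.603 and 1.07 in AOM/DSS and 0.398, 0.981, 0.495 and 0.385 in curcumin, from 1 to 33 reads per library, and was not tested. Cyp2u1 gave 2 to 33 reads per library and was not tested either.

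Genes that work with these enzymes were read from lists chosen with earlier results of these data known. Of 19 tested genes of electron supply and haem synthesis, none was called in any comparison. Por was at 71.9, 59.6, 38.9 and 88.0 FPKM in control, 58.3, 54.5, 52.8 and 53.95 in AOM/DSS and 122, 86.4, 72.8 and 67.6 in curcumin. All curcumin libraries were above all AOM/DSS libraries, but the difference of 0.62 did not pass (SE 0.23, adjusted p = 0.222). Of 7 tested epoxide hydrolases and arachidonate enzymes, only Ephx2 was called. It was at 17.2, 18.3, 16.6 and 23.4 FPKM in control, 8.82, 9.22, 8.49 and 11.8 in AOM/DSS and 24.6, 22.1, 26.4 and 23.3 in curcumin. AOM/DSS did not overlap the other groups. Ephx2 fell by 0.91 in AOM/DSS (SE 0.13, adjusted p = 0.00566) and rose by 1.25 with curcumin over AOM/DSS (SE 0.13, adjusted p = 0.000944).

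Of 17 tested sensors of P450 inducers, 2 were called. Nr1i3, which encodes CAR, was at 5.91, 6.27, 3.55 and 7.17 FPKM in control, 3.17, 4.97, 3.21 and 1.66 in AOM/DSS and 10.9, 10.4, 9.34 and 7.71 in curcumin. Curcumin libraries were above all others, and it rose by 1.36 over AOM/DSS (SE 0.23, adjusted p = 0.0155). The vitamin D receptor Vdr fell by 0.83 in AOM/DSS against control (SE 0.11, adjusted p = 0.00366), from 205 to 115 FPKM. Nr1i2, which encodes PXR, was at 56.8 ± 7.43, 44.9 ± 4.44 and 50.8 ± 4.17 FPKM and Ahr at 3.87 ± 0.490, 3.57 ± 1.03 and 2.97 ± 0.788, both with no call. Of 4 tested Ah receptor targets outside the P450 families, Nqo1, also a target of NRF2, rose in curcumin against control by 1.42 (SE 0.24, adjusted p = 0.0447), from 16.9 ± 4.97 to 47.1 ± 12.3 FPKM. Of 4 tested genes among 20 of other P450 families, 0 were called in any comparison.

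The summed level of mature colonocyte markers, like the levels of Cyp2d12 and Cyp2d22, was lower in every AOM/DSS library than in every other library. The 8 genes of that list, none at 0, summed to 5553 to 8029 FPKM in control, 2726 to 4727 in AOM/DSS and 6001 to 9356 in curcumin. Of them 4 fell in AOM/DSS and 5 rose with curcumin over AOM/DSS, among them the chloride exchanger Slc26a3. The part of cell composition in the P450 differences was not tested. The 7 goblet cell markers in the files summed to 3718 to 5404 FPKM in control, 5062 to 7568 in AOM/DSS and 6296 to 7926 in curcumin, and 1 of them, Spink4, rose in AOM/DSS (1.28, SE 0.22, adjusted p = 0.0140). The 7 B and plasma cell markers summed to 92.5 to 134.1, 123.6 to 172.6 and 97.3 to 110.4 FPKM, with 0 called. Hepatocyte markers summed to 78.8 to 121 FPKM in control, 61.3 to 91.4 in AOM/DSS and 89.3 to 101 in curcumin, with Fga and Fgb at 0 in each library. Of that list Tat, a tyrosine aminotransferase, fell in AOM/DSS by 1.17 (SE 0.25, adjusted p = 0.0448), from 42.6 ± 12.5 to 18.5 ± 5.95 FPKM. Macrophage markers summed to 9.02 to 49.2 FPKM in control, 18.8 to 63.6 in AOM/DSS and 5.22 to 31.0 in curcumin, and fibroblast markers to 0.890 to 13.2, 2.66 to 25.2 and 0.370 to 4.81. The highest AOM/DSS sums of the hepatocyte, macrophage and fibroblast markers were those of AOM/DSS 3. Without that library the highest in AOM/DSS were 66.6, 56.9 and 6.07 FPKM.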

How the data were processed

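The deposited values are FPKM, 1 value per symbol and library for 24391 symbols, which the authors made before deposit. Build mm9 and the tools featureCounts 1.5.1, R 3.4.0, Picard, DESeq2 1.14.1, TopHat2 2.1.1 and Bowtie2 2.2.6 stand, without roles, in the submitters' processing notes. Annotation and strand are not given in the sources used here. All 19233 genes above 0 were whole multiples of 1 read's worth (100% at a tolerance of 0.001), which gave the read totals. For a gene above 0 in only 1 library this holds by construction, and its count is set to 1. The counts are the smallest whole numbers that fit, so some may be too low.

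The test was limma 3.58.1 (R 4.3.3) on log2(FPKM + 1), with an intensity trend and 1 mean per group over all 12 libraries. Benjamini-Hochberg adjustment ran over the 12052 genes that reached 1 FPKM in 4 or more libraries. Differences on this scale understate changes of low genes. The fit was checked on simulated data. Groups came from the labels. A library was GC-rich where its deviations correlated positively with gene GC content (11972 of 12052 genes matched, 99.34%). Promoters, gene order and shared 50-base stretches came from GRCm38.p6, and no mm9 coordinate is used. The members and lists were chosen with earlier results of these data known. The rule for named members took those called in any comparison, the 6 largest differences per comparison, the 10 highest means and 19 fixed genes, and all 31 tested members were followed. Cyp2c70, Cyp4f18, Cyp4a10, Cyp4a14, Hnf4a, Hnf4g, Spink4, Tat, Alb, Sis, Fabp2, Alpi and Slc26a3 stand outside it and were named after their values were seen. Alternatives changed the pseudocount (0.1, 0.5), filter (none, 5 FPKM), scaling, trend, libraries fitted and covariates, or used limma voom on recovered reads. The fits by GC class were added after the data were seen.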

Additional observations from a re-analysis of the deposited data

Results flagged for a closer look

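Of 93 groups of 4 libraries checked (31 tested members in 3 groups), 10 held a library whose gap to its nearest neighbour, divided by the whole range of the group, was above Dixon's 95% critical value. Chance alone gives about 1 in 20 such groups. In AOM/DSS 3, Cyp2d26 was at 106 FPKM against 16.2 to 17.0 in the other AOM/DSS libraries, Cyp4b1 at 58.7 against 0.123 to 3.05 and Cyp2e1 at 2.08 against 1.64 to 1.66. In curcumin 0, Cyp2d10 was at 186 FPKM against 115 to 119 in its group, and Cyp2s1 at 110.2 against 78.8 to 84.0. Cyp2w1 was at 3.25 FPKM in curcumin 1 against 0.424 to 0.518, and Cyp4b1 at 9.94 in curcumin 2 against 3.03 to 3.67. Cyp4f37 was at 1.62 FPKM in AOM/DSS 2 against 1.27 to 1.31. Among controls, Cyp4f17 was at 2.30 FPKM in control 0 against 0.932 to 1.16, and Cyp2d26 at 17.0 in control 2 against 22.9 to 23.9.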

How the results depend on the processing

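For AOM/DSS against control 3 members were called, beside 153 of the 12052 genes. With the replicate block and the GC class together the count was 1, beside 111 genes (0.921%). With only the groups compared in the fit it was 1, beside 54 genes (0.448%). In the GC-rich and AT-rich libraries alone it was 0 and 0, beside 7 and 4 genes. When 1 library was left out it was 1 to 5, beside 53 to 201 genes. For curcumin against AOM/DSS 7 members were called, beside 130 genes. With the GC class as a covariate the count was 12, beside 272 genes (2.26%). With only the groups compared it was 4, beside 85 genes (0.705%). In the GC-rich and AT-rich libraries it was 0 and 0, beside 8 and 1 genes. When 1 library was left out it was 4 to 10, beside 48 to 149 genes. For curcumin against control, with 0 calls, quantile normalization called 1, beside 23 genes (0.191%). That member was Cyp4f16 (adjusted p = 0.0493, range 0.0493 to 0.520 over its alternatives). Leaving out 1 library called 0 in each fit, beside 4 to 35 genes. Within GC classes all genes together gave at most 8 calls in a comparison, but each of the 3 and 7 called members kept its direction in both classes. The cause of these changes was not tested, beyond the fewer libraries in each class. Cyp2d26 for curcumin against AOM/DSS was -0.01 with all libraries and -0.24 to 0.64 when 1 was left out, the highest, with a call, without AOM/DSS 3 (adjusted p = 0.0471, range 0.0471 to 1.00 over all alternatives), the library that was high. Direction was followed only for differences past the threshold. Over single members and settings, 2316 values stayed on their side of the threshold, 50 lost a call, 24 gained one and 1 (Cyp2d26, above) changed sign with a call.

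Correlations of same-numbered libraries ran from -0.333 to 0.456, and 6 of 12 were above 0.1. Since not all were, and the labels give no shared litter, batch or day, the numbers were not taken as pairs. In the data, 4 of 12 libraries correlated best with one of their own number, and the GC class followed the number in 11 of 12, control 1 being the exception. The replicate block called 2, 5 and 0 members in the 3 comparisons, beside 82, 86 and 2 genes (0.68%, 0.714% and 0.0166%). Cyp4f40 lost its call in the first (adjusted p = 0.0509), and Cyp2c40 (0.0622) and Cyp2d9 (0.0541) lost theirs in the second. Over all alternatives their adjusted p ran from 0.0132 to 0.682 for Cyp4f40, 0.00721 to 0.406 for Cyp2c40 and 0.0208 to 0.379 for Cyp2d9. With the GC class as well the block called 1, 8 and 0 members, beside 111, 156 and 1 genes. The depth of 5567988 to 15968416 reads leaves the 22 members that never reached 0.5 FPKM with at most 16 reads in any library (Cyp2j13).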
